A study of Mus musculus with 2 samples.

Results

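The cells described here are the barcodes that the study's cell annotation names M1 macrophages, in injured mouse tibialis anterior, a shin muscle. They were chosen by that name alone, which the study drew from clusters of measured levels, and number 696 of the 6953 annotated barcodes. Of these, 468 of 3537 came from the day 2 library and 228 of 3416 from the day 7 library. All 696 passed the cell limits that were set and were kept.

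The series holds 2 droplet (10x Chromium v3) single-cell RNA libraries of dissociated whole muscle, made to follow the muscle through degeneration and repair. One was taken 2 days and one 7 days after muscle injury with notexin, a phospholipase from snake venom that kills muscle fibres. Each time point is 1 library from 1 C57Bl/6 mouse, so no difference has a replicate check and no test of day was possible. No uninjured muscle is among them. The sample labels give both mice as female and 7 months old, while the annotation gives male mice, 4 months old at day 2 and 7 months old at day 7. In the M1-labelled cells Xist, the transcript of the silenced X chromosome, had 0 counts at both days, and 4 Y-linked genes summed to 971 counts in those of day 2 and to 384 in those of day 7. Library, day and the annotated age cannot be told apart. The libraries share 4 called barcodes, 1 of them kept, and 0 of the M1-labelled cells.

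Macrophages in injured muscle come largely from blood monocytes, which enter the damaged tissue and mature there. By textbook usage, M1 macrophages are the early, inflammatory kind, making nitric oxide, tumour necrosis factor and interleukins, and M2 macrophages are the later kind, tied to the clearing of debris and to repair. Cells that have taken up dying cells and their lipid commonly express another set of genes, among them Trem2, Gpnmb, Apoe and Spp1, along with the enzymes of the lysosome, the compartment in which engulfed material is broken down. These are names for ends of a range, and a cell can carry genes of more than one.

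Values are unique transcript counts summed over the cells of a group and scaled by the sum over all genes (CPM, the usual scale of such counts). A ratio is given on the log2 scale, with its 95% interval in parentheses. All intervals cover counting error only, not the differences between animals or between cells. The M1-labelled cells held 6771396 counts at day 2 and 3340785 at day 7, with medians of 13636 and 12528 counts and 3349 and 3174 genes per cell. Their mitochondrial share had a median of 4.84% at day 2 and 4.0% at day 7.

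The M1 name was the most frequent of the 6 monocyte and macrophage names at both days. M1-labelled cells were 14.7% (13.5 to 16.0) of 3178 kept cells with a cell type at day 2 and 7.13% (6.27 to 8.08) of 3196 at day 7. Among the monocytes and macrophages alone they were 36.2% (33.6 to 38.9) of 1292 and 30.1% (26.9 to 33.5) of 757. The difference within the monocytes and macrophages was -6.10 percentage points (-10.3 to -1.80). It was smaller than the one over all cells, at -7.59 points (-9.14 to -6.05).

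The 5 genes taken as markers of these cells did not set the M1 name apart from the other 5 names. They are Gpnmb, a glycoprotein of phagosomes and lysosomes, Trem2, a lipid receptor, Lyz2, the lysozyme of monocytes and macrophages, Chil3, a chitinase-like protein of monocytes, and Atp6v0d2, a subunit of the proton pump that acidifies lysosomes. In GENCODE vM21 on GRCm38, Gpnmb lies at chr6:49036546-49070929, Trem2 at chr17:48346401-48354147, Lyz2 at chr10:117277331-117282321, Chil3 at chr3:106147554-106167564 and Atp6v0d2 at chr4:19876841-19922605.

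Gpnmb stood at 183 CPM (173 to 193) in the M1-labelled cells of day 2 and at 1631 (1588 to 1675) in those of day 7. In the patrolling monocytes it stood at 475 and 2986 CPM, above the M1-labelled cells at both days, and in the other 4 labels it was lower. Trem2 followed the same order at day 7, with 1536 CPM (1494 to 1578) under the M1 name and 2154 in patrolling monocytes. At day 2 Trem2 was at 275 CPM (263 to 288), near the 287 of the M2 macrophages low in Cx3cr1. Atp6v0d2 was at 20.8 CPM (17.5 to 24.6) and then 295 (277 to 314), against 37.4 and 425 in patrolling monocytes. So 3 of the 5 marker genes were highest in patrolling monocytes at both days, with M1-labelled cells next in line for Gpnmb and Atp6v0d2.

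Chil3 had its highest level in inflammatory monocytes. It stood at 818 CPM (797 to 840) in M1-labelled cells against 1577 in inflammatory monocytes at day 2, and at 10.8 (7.55 to 14.9) against 32.3 at day 7. Few cells held Chil3 at day 7, and 61.1% of its counts under the M1 name lay in 1 cell. A count was found there in 4.82% of M1-labelled cells, 4.76% of inflammatory monocytes and 8.09% of patrolling monocytes. Lyz2 was at 12219 CPM (12136 to 12302) and then at 24145 (23978 to 24312), and ranged from 7863 to 16998 CPM over the 6 labels of day 2. Reads of Lyz2 and Chil3 could be shared with the near copies Lyz1 and Chil4, so their levels are less certain.

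**Figure D1:**
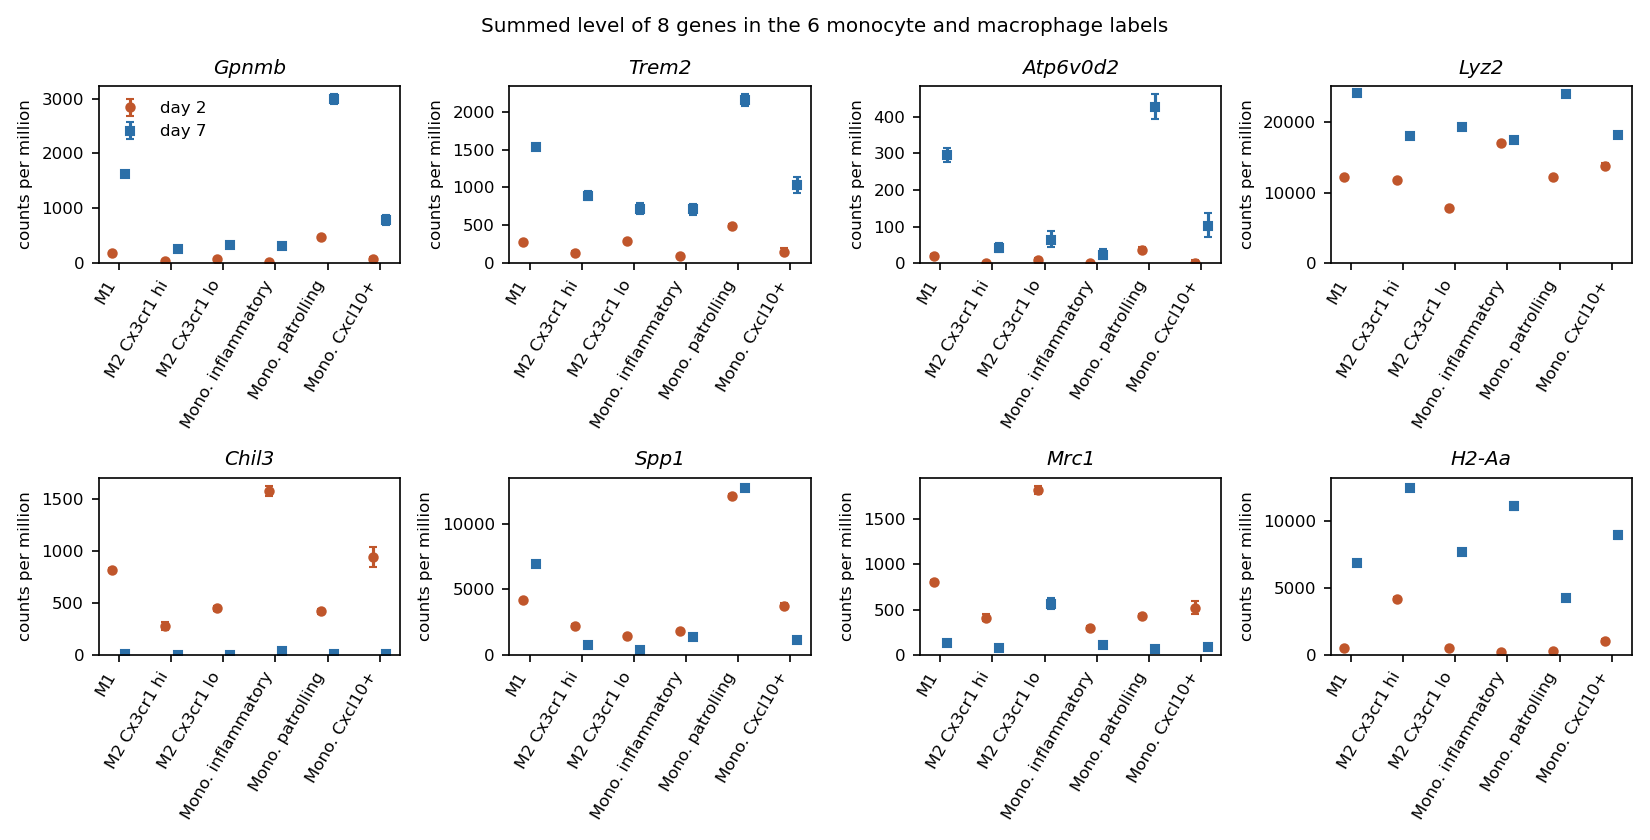
Level (CPM, linear axis from 0) of the 5 marker genes and of Spp1, Mrc1 and H2-Aa under each of the 6 monocyte and macrophage labels, with circles for day 2, squares for day 7 and bars for 95% Poisson intervals. Gpnmb, at 1631 CPM under the M1 name and 2986 in patrolling monocytes at day 7, shows the M1-labelled cells lying between other labels.

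Genes of the textbook M1 state differed in how much of them was found. Over both days 12 of the 22 listed genes reached 100 counts. Nos2, which makes nitric oxide, had 3 counts in 468 M1-labelled cells at day 2 and 0 in 228 at day 7, where a floor of 3 counts allows a share of up to 1.32% of cells with a count. A count of Nos2 was found in 0.427% of M1-labelled cells at day 2. Among the capillary endothelial cells of the same libraries, with medians of 6992 and 5444 counts, 55.3% and 43.0% had one. Il12a had 2 and 0 counts, Il12b 0 and 4, and the scavenger receptor Marco 0 and 8. A count of Il1b was found in 70.9% and 43.9% of M1-labelled cells at day 2 and day 7, against 16.4% and 1.34% of capillary endothelial cells. At day 2 the share was 80.4% in inflammatory monocytes and 79.3% in M2 macrophages high in Cx3cr1. The cytokines of this state with more counts, Tnf at 63.8 and 90.1 CPM and Il1b at 710 and 453 CPM, were not highest under the M1 name. At day 2 Il1b reached 1708 CPM in inflammatory monocytes and Tnf 98.0 CPM in M2 macrophages low in Cx3cr1. The M1 name is used here only as the annotation's name.

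By its whole profile the M1 name sat in the middle of the 6 labels. A gene was compared where the groups together held at least 100 of its counts, and was called apart where the ratio was at least 2 or at most 0.5. The labels were drawn by clustering on these same genes, so the counts describe the labels and test nothing. Set against the 5 other labels pooled, M1-labelled cells of day 2 were apart for 28 of 7863 genes, 3 higher (0.0382%) and 25 lower (0.318%). At day 7 they were apart for 18 of 6378 genes, 5 higher (0.0784%) and 13 lower (0.204%). With no filter on counts the numbers were 308 higher and 267 lower at day 2 and 353 and 368 at day 7, so the lean to lower genes depends on that filter. The median size of the log2 ratio was 0.11 at day 2 and 0.15 at day 7.

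Single labels lay farther away. At day 2, 180 genes (2.88%) were higher and 75 (1.2%) lower in M1-labelled cells than in M2 macrophages high in Cx3cr1, and 124 (1.8%) and 67 (0.972%) against those low in Cx3cr1. Against inflammatory monocytes the numbers were 308 (4.64%) and 108 (1.63%), and against patrolling monocytes 158 (2.34%) and 46 (0.682%). Against Cxcl10+ monocytes they were 604 (9.88%) and 301 (4.93%). At day 7 the fewest genes parted M1-labelled cells from patrolling monocytes, with 45 (0.899%) higher and 15 (0.3%) lower. In the same order, the other 4 labels of day 7 gave 95 (1.94%) and 38 (0.776%), 162 (3.62%) and 111 (2.48%), 204 (4.62%) and 72 (1.63%), and 173 (4.03%) and 142 (3.31%). The number of genes that can pass 100 counts and the width of the intervals both depend on how many cells a label has, and the 38 and 45 Cxcl10+ monocytes are the fewest.

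**Figure D2:**
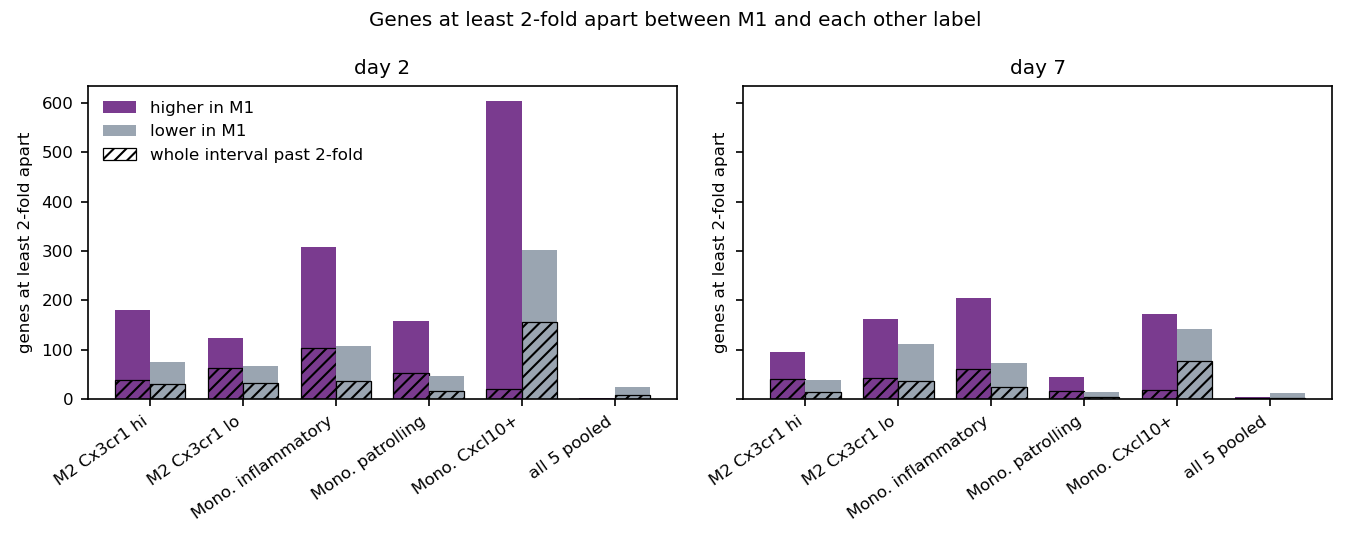
Number of genes at least 2-fold higher (purple bars) or lower (grey bars) in M1-labelled cells than in each other label and in those labels pooled, at day 2 (left) and day 7 (right), with hatching for genes whose whole 95% interval was past 2-fold. At day 7 patrolling monocytes are the nearest single label, with 45 genes higher and 15 lower.

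Across the 6 labels, the M1 name held the highest level for 519 of 7863 genes (6.60%) at day 2 and for 495 of 6378 (7.76%) at day 7. It was the highest or the lowest for 9.08% and 13% of genes, where the other labels ranged from 29.6% to 53.3% at day 2 and from 21.2% to 43.7% at day 7. It was highest by at least 2-fold over every other label for 0 genes at day 2 and for 1 at day 7, Mt3. A group of many cells has steadier levels than a small one, and the M1 name has the most cells.

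For a pair of gene groups the M1 name lay between inflammatory and patrolling monocytes, a place that other labels shared. Of 12 monocyte genes tested at day 2, 12 were below the inflammatory monocytes and 6 by at least 2-fold, with a median log2 ratio of -1.03. Against patrolling monocytes 11 of the 12 were above and 6 by at least 2-fold, with a median of 1.18. Of all genes, 1.63% were at least 2-fold lower than in inflammatory monocytes and 2.34% higher than in patrolling monocytes. The lipid-associated genes ran the other way. Of 22 tested, 14 were at least 2-fold higher than in inflammatory monocytes (median 1.24), while 20 were below patrolling monocytes, 5 by at least 2-fold (median -0.71). The shares of all genes past 2-fold in those directions were 4.64% and 0.682%. At day 7 all 23 lipid-associated genes tested were below patrolling monocytes (median -0.56), 3 by at least 2-fold, beside 0.3% of all genes. Above inflammatory monocytes were 22 (median 0.96). By the share of counts in the median cell, the other 3 labels lay between inflammatory and patrolling monocytes as well for the lipid-associated genes at both days. For monocyte genes at day 2 so did M2 macrophages high in Cx3cr1 and Cxcl10+ monocytes. The lists were written with earlier results of these data known.

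Spp1, which encodes osteopontin, a secreted matrix protein of lipid-laden macrophages, shows the order. At day 2 it was at 1847 CPM in inflammatory monocytes, 4135 (4087 to 4184) under the M1 name and 12111 in patrolling monocytes. At day 7 the same labels stood at 1330, 6897 (6809 to 6987) and 12695 CPM. The other 3 labels of day 7 were at 374 to 1093 CPM. Few cells carried the M1 level at day 7, with 78.8% of the counts in 23 of 228 cells and 16.6% in 1 cell, and the median M1-labelled cell stood at 585 CPM.

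The few genes higher under the M1 name than in the pooled labels often rested on single cells. At day 2 they were Retnla, a secreted protein of alternatively activated macrophages, Mfge8, which bridges phagocytes to dying cells, and Lcn2, an iron-carrier-binding protein. Retnla stood at 49.0 CPM against 21.7, but 327 of its 332 counts (98.5%) lay in 1 cell, and without the highest cell of each group its log2 ratio was -4.37. Mfge8 stood at 12.4 CPM against 5.35, with a log2 ratio of 1.21 (0.70 to 1.74), with 40.5% of its counts in 1 cell. Lcn2 stood at 10.5 CPM against 4.12, spread over 32 of the 468 cells, and stood at 13.1 CPM in inflammatory monocytes.

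At day 7 the 5 genes were Mt3, Ctsk, Angptl2, Fn1 and Mfge8. Mt3, a metallothionein, had 131 of its 135 counts (97.0%) in 1 cell. Ctsk, a cathepsin known from bone-resorbing osteoclasts, stood at 78.1 CPM against 25.4, with a log2 ratio of 1.62 (1.29 to 1.96), with 29.5% of its counts in 1 cell. Without the cells above the 95th percentile of total counts the ratio was -0.73. Angptl2, a secreted angiopoietin-like protein, stood at 28.4 against 13.2 CPM, with 47.4% of its counts in 1 cell.

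For Fn1 and Mfge8 no single cell held as large a share, but few cells held most counts, with 75.6% of Fn1 and 88.9% of Mfge8 in 23 of the 228 cells. Fn1, the matrix protein fibronectin, stood at 249 CPM (232 to 267) against 119, with a log2 ratio of 1.07 (0.90 to 1.23), with 9.62% of its counts in the highest cell. Without cells holding 3 or more counts of other cell types' markers its ratio was 1.29, and with Gsn, Csf3r and Pecam1 left out of those markers it was -0.13. Inflammatory monocytes held 268 CPM of it. Mfge8 stood at 191 CPM (176 to 206) against 90.7, with a log2 ratio of 1.07 (0.89 to 1.26), with 12.5% of its counts in the highest cell, and patrolling monocytes held 238 CPM of it. Ctsk and Angptl2 were more abundant in the ambient RNA of the day 7 library, taken from barcodes of 1 to 100 counts, at 182 and 69.5 CPM, and so was Fn1, at 505 CPM. The part of ambient RNA in these ratios was not tested. Mt3, Angptl2 and Lcn2 were named after their values were seen.

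Just below the threshold at day 7 lay Ctsl, another lysosomal protease, at 1604 CPM (1561 to 1648) against 929, with a log2 ratio of 0.79 (0.73 to 0.85). Atp6v0d2 had a log2 ratio of 0.72 (0.58 to 0.86). Both were higher still in patrolling monocytes, at 2018 and 425 CPM.

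Interferon-stimulated genes formed the main group on the low side. These genes are switched on by interferons and many encode antiviral proteins. Of 14 tested, all 14 had a log2 ratio below 0 against the pooled labels at day 2, 7 by at least 2-fold, with a median of -0.96, where the median over all genes was 0.01. Of all genes 0.318% were at least 2-fold lower. Rsad2, an antiviral enzyme, stood at 41.2 CPM (36.5 to 46.3) under the M1 name and at 2378 CPM in the Cxcl10+ monocytes. In the other 4 labels it stood between 44.9 and 108 CPM. Isg15, a ubiquitin-like protein, stood at 246 CPM (235 to 258) against 261 to 425 in those 4 labels and 3097 in the Cxcl10+ monocytes.

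For this list the M1 name lay farthest from the 38 Cxcl10+ cells, a label whose name is itself an interferon-induced gene. Against that label alone 13 of 14 genes were at least 2-fold lower at day 2, beside 4.93% of all genes, with a median of -4.07. Against inflammatory and patrolling monocytes the medians were -0.20 and -0.08. Against M2 macrophages high in Cx3cr1 the median was -0.79, with 4 of 13 genes at least 2-fold lower, beside 1.2% of all genes. Against those low in Cx3cr1 the median was -0.54, with 11 of 13 below 0. At day 7 all 14 were again below the pooled labels, 0 of them by 2-fold, with a median of -0.43.

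The other genes lower at day 2 included 4 haemoglobin genes, whose 4 transcripts together stood at 10.2 CPM under the M1 name, 142 in the pooled labels and 787 in ambient RNA. They are markers of red cells, and their part in other differences was not tested. At day 7, Plac8, a monocyte gene, was lower at 39.2 CPM (32.8 to 46.5) against 104, and Cxcl1, which attracts neutrophils, at 7.48 CPM (4.84 to 11) against 28.0, with log2 ratios of -1.41 (-1.70 to -1.12) and -1.90 (-2.59 to -1.27). Retnla was lower as well, at a log2 ratio of -1.94 (-2.38 to -1.52), with 92.9% of its counts under the M1 name in 1 cell.

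Between the 2 days the M1-labelled cells differed far more than the M1 name differed from its neighbours. Of 7099 genes, 769 (10.8%) were at least 2-fold higher at day 7 and 1106 (15.6%) at least 2-fold lower. The whole interval was past 2-fold for 501 (7.06%) and 548 (7.72%) of them. The pooled other labels gave like numbers, 850 higher (10.9%) and 1085 lower (13.9%) of 7781 genes. The median log2 ratio of day 7 to day 2 over all genes under the M1 name was -0.23, so with scaling to the median gene every M1 day ratio below is 0.23 higher, 1082 genes were higher and 680 lower, and the share of higher genes among those apart moved from 41.0% to 61.4%. Values below are relative to total counts.

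Genes for presenting antigen were higher at day 7 as a group. MHC class II molecules show peptides from engulfed material to T cells, Cd74 chaperones them, H2-DMa and H2-DMb1 encode the protein that loads the peptide, and Ciita is the factor that switches the set on. All 7 tested genes of 10 listed were at least 2-fold higher at day 7, beside 10.8% of all genes, with a median log2 ratio of 3.76.

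H2-Aa stood at 508 CPM (491 to 525) at day 2 and at 6915 (6826 to 7005) at day 7, with a log2 ratio of 3.77 (3.71 to 3.82). H2-Ab1 stood at 508 and 6872 CPM and H2-Eb1 at 430 and 6367 CPM. These encode the chains of the surface molecules and differed alike. H2-DMa stood at 119 and 662 CPM, H2-DMb1 at 74.3 and 627 CPM, and Cd74 at 1555 and 16754 CPM. Ciita had 3 counts at day 2 and 167 at day 7, with a log2 ratio of 6.82 (5.25 to 9.11).

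The day difference in this group was shared with the other labels. In these pooled, H2-Aa had a log2 ratio of 3.61 (3.57 to 3.64) and the list a median of 3.6. Within each day M1-labelled cells were below the pooled labels for 6 of 6 genes at day 2 (median -0.38) and 7 of 7 at day 7 (median -0.25), with 0 past 2-fold. They were above patrolling monocytes for 6 of 6 and 7 of 7 (medians 0.96 and 0.85), and below the M2 macrophages high in Cx3cr1 for 6 of 6 and 7 of 7 (medians -2.82 and -0.79). Ambient RNA held 1818 CPM of the list at day 2 and 7515 at day 7, against 3198 and 38258 CPM under the M1 name, and its part in the difference was not tested.

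More cells had a count of H2-Aa at day 7. The share was 35.5% of M1-labelled cells at day 2 and 98.7% at day 7, or 19.9% and 94.3% after each cell was thinned to 2000 counts, which left out 1 cell of day 2. In capillary endothelial cells, at medians of 6992 and 5444 counts, 9.43% and 18.8% had one. The 47 cells of day 2 richest in H2-Aa held 84.2% of its counts, and the 23 richest cells of day 7 held 25.9%.

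Promoters of this group are shown because the genes compared were all higher at day 7. RefSeq gave a promoter sequence on GRCm38.p6 for 7 of the 10 genes. Of these, H2-Aa, H2-Eb1, H2-DMa and H2-DMb1 are among the genes compared, while H2-DMb2, H2-Oa and H2-Ob had too few counts. In the 250 bases before the start, on either strand, the letters ATTGG, the core of the Y box bound by NF-Y, stood in 7 of 7, counting a gene where any of its promoters held them, as 37.5% of all 27025 genes with a promoter did. The longer CTGATTGG, which contains them, stood in 3 of 7 (H2-Aa, H2-Eb1 and H2-Oa) and in 4.43% of all genes. The letters ACNGATG, taken from the X box, stood in 5 of 7 and in 9.45% of all genes. In H2-Aa they stood further upstream than the stretch shown. Such matches are letters in a window and not evidence of binding.

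The 110 bases before the RefSeq start of H2-Aa (chr17:34287824-34287933, minus strand) and of H2-Eb1 (chr17:34305757-34305866, plus strand) follow, 5′ to 3′. Capitals mark CTGATTGG, ATTGG and ACNGATG, on either strand.
H2-Aa: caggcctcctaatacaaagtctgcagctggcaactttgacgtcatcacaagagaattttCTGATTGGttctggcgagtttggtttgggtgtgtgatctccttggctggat
H2-Eb1: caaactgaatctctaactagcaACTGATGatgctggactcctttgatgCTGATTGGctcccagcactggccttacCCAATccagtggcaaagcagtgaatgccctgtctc

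Lysosomal enzymes and membrane proteins were mostly at higher levels at day 7. Of 41 listed genes 39 were tested, 16 were at least 2-fold higher, 0 were at least 2-fold lower, and the median log2 ratio was 0.85. Among all genes the shares were 10.8% higher and 15.6% lower. Acp5, an acid phosphatase, stood at 30.7 CPM (26.7 to 35.2) at day 2 and 692 (664 to 721) at day 7. Lipa, the acid lipase that frees cholesterol, stood at 128 and 447 CPM, and Ctss, a protease that trims the MHC class II chaperone, at 1869 and 6390 CPM.

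Others of the list did not reach 2-fold. Ctsd, the main aspartic protease of the lysosome, stood at 3407 and 3854 CPM, with a log2 ratio of 0.18 (0.15 to 0.21). Ctsl stood at 2732 and 1604 CPM, with a log2 ratio of -0.77 (-0.81 to -0.72), and in the pooled labels the ratio was -1.51 (-1.56 to -1.47). The median of the list was 0.62 in the pooled labels, with 14 higher and 1 lower of 41. Against patrolling monocytes the M1 name had medians of -0.41 at day 2 and -0.23 at day 7.

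The subunits of the proton pump lay near the genes at large. Of 17 vacuolar ATPase subunits tested, 1 was at least 2-fold higher, where 10.8% of all genes were, and the list median was -0.22 beside -0.23 over all genes. The higher one was Atp6v0d2, at a log2 ratio of 3.82 (3.57 to 4.09). Among 20 transcription factors, Tfeb, a regulator of lysosomal genes, had a log2 ratio of 1.85 (1.48 to 2.22), while Mitf, of the same family, had -0.15 (-0.44 to 0.14). Irf8, a factor of the monocyte lineage, stood at 98.9 and 421 CPM. Hif1a, the hypoxia factor, stood at 298 and 59.0 CPM. In all, 6 of the 20 were higher and 4 lower, with a median of -0.10, beside 10.8% and 15.6% of all genes. The letters CACGTG, which Tfeb and its family bind, stood in a promoter of 9 of the 33 lysosomal genes matched and of 6.86% of all genes, and TCACGTGA, which contains them, of 4 of 33 and 0.907%.

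Of 23 lipid-associated macrophage genes tested, 10 were at least 2-fold higher at day 7 and 4 lower, with a median of 0.66, beside 10.8% higher and 15.6% lower among all genes. Apoe, the lipoprotein that carries lipid out of macrophages, stood at 2273 CPM (2237 to 2309) and 43677 (43453 to 43902), with a log2 ratio of 4.26 (4.24 to 4.29). Itgax, the integrin CD11c, stood at 10.9 and 383 CPM, and Mmp12, the macrophage elastase, at 5.32 and 335 CPM with 23.6% of its day 7 counts in 1 cell. Trem2 and Gpnmb were 5.58-fold and 8.92-fold higher.

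The 4 lower genes of that list were Fabp5, a fatty acid carrier, Plin2, a coat protein of lipid droplets, the galectin Lgals1 and the protease inhibitor Cstb. Fabp5 stood at 3796 (3750 to 3843) and 1890 (1844 to 1937) CPM, and reads of it may be shared with processed copies. Plin2 stood at 1293 (1266 to 1321) and 625 (598 to 652) CPM. Lgals1 had a log2 ratio of -1.57 (-1.62 to -1.51). The log2 ratios of -1.01 for Fabp5 and -1.05 for Plin2 become -0.77 and -0.82 with scaling to the median gene, inside 2-fold.

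Genes for the uptake, storage and efflux of lipid went both ways. Of 20 tested, 7 were higher and 6 lower, where 10.8% and 15.6% of all genes were, with a median of -0.03, or 0.20 with scaling to the median gene. The efflux pumps Abca1 and Abcg1 had log2 ratios of 2.01 (1.83 to 2.20) and 3.46 (3.20 to 3.73), and Nr1h3, the sterol-sensing receptor LXR alpha that switches them on, 1.84 (1.5 to 2.18). The scavenger receptor Msr1 stood at 458 CPM (442 to 474) at day 2 and at 38 (31.7 to 45.2) at day 7. The pooled labels had -3.56 (-3.80 to -3.33) for Msr1 and 3.25 (3.05 to 3.46) for Abcg1.

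Receptors and bridging proteins for dying cells were higher for 7 of 15 tested and lower for 1, with a median of 0.82. Of all genes 10.8% were higher and 15.6% lower. Axl, a receptor that binds dying cells through a bridge, stood at 9.16 CPM (7.02 to 11.7) at day 2 and 293 (275 to 312) at day 7. Its relative Mertk stood at 22.2 (18.7 to 26.0) and 82.9 (73.4 to 93.3) CPM. C1qa, of the complement protein C1q, which coats debris, stood at 680 and 5206 CPM, and C1qb and C1qc had log2 ratios of 2.52 and 2.93. The gene that was lower was Stab1, a receptor of the same group, at -1.07, or -0.83 with scaling to the median gene.

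Of 9 haem and iron genes tested, 0 were higher and 2 lower, with a median of 0.07, where 10.8% of all genes were higher and 15.6% lower. The lower ones were Cd163, the haemoglobin scavenger receptor, at 42.1 and 2.69 CPM, and Tfrc, which imports iron, at 37.2 and 3.29 CPM. Hmox1, which breaks down haem, had a log2 ratio of -0.91 (-1.02 to -0.80).

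**Figure D3:**
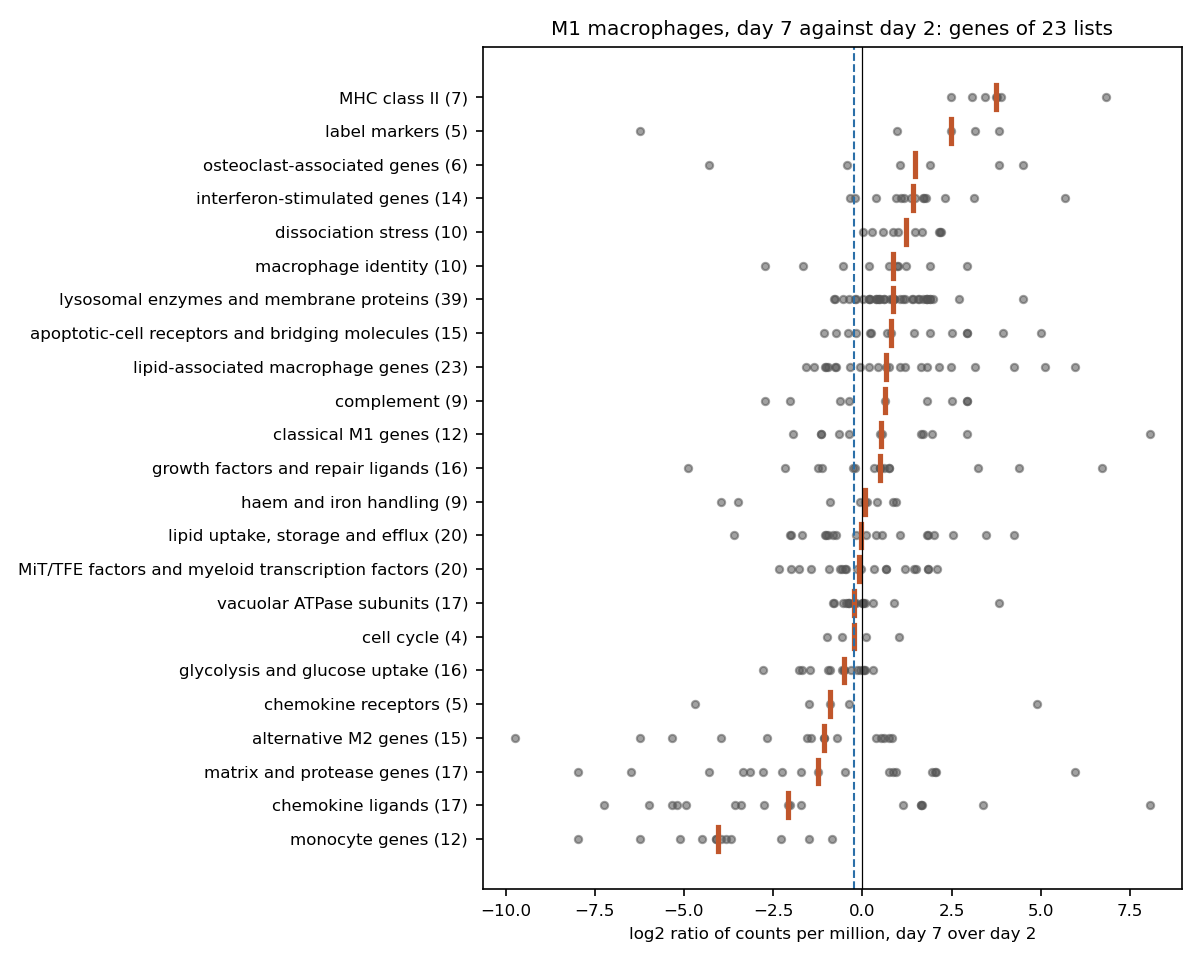
Log2 ratio of day 7 to day 2 in M1-labelled cells for each gene of the lists (dots), with the list median (orange bar), the number tested in brackets and the median of all genes, -0.23, as a dashed line. Counts under 3 were taken as 3, which places Ccl5 at 8.07. MHC class II genes (median 3.76) lie to the right and monocyte genes (median -4.04) to the left.

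Monocyte genes were lower without exception. All 12 tested had a log2 ratio below 0, 11 of them by at least 2-fold, with a median of -4.04. Among all genes 15.6% were at least 2-fold lower. Vcan, a matrix proteoglycan made by monocytes, stood at 447 CPM (432 to 464) at day 2 and 1.80 (0.659 to 3.91) at day 7. Thbs1, thrombospondin, stood at 2845 (2805 to 2886) and 82.0 (72.6 to 92.3) CPM. Ccr2, the receptor that draws monocytes out of the marrow, stood at 530 and 188 CPM, and Ly6c2, a surface protein of inflammatory monocytes, at 201 and 41.3 CPM. Reads of Ly6c2 may be shared with Ly6c1. The pooled labels had a median of -3.93 for the list, with all 12 below 0 and 10 by at least 2-fold.

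The M2 list was lower too at day 7, by at least 2-fold for 9 of 15 genes and higher for 0, with a median of -1.07. Of all genes 15.6% were lower and 10.8% higher. In the pooled labels 7 of 16 were lower and 2 higher, with a median of -0.29. Retnla, one of the 9, rested on 1 cell at each day and had a log2 ratio of 0.70 without those cells. Mrc1, the mannose receptor, stood at 806 (784 to 827) and 125 (114 to 138) CPM. Of the 6 labels at day 2, Mrc1 was highest in the M2 macrophages low in Cx3cr1, at 1821 CPM.

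Of the textbook M1 list, 12 of 22 genes had enough counts, and 5 were higher and 3 lower at day 7, with a median of 0.53, beside 10.8% and 15.6% of all genes. Among the higher ones, which interferons can induce, were Irf1 (20.8 and 80.5 CPM), Gbp2 (8.86 and 68.2 CPM), Cxcl10 (22.4 and 70.6 CPM) and Ccl5 (2 and 398 counts). The lower ones were Ptgs2, which makes prostaglandins, at 113 and 29.3 CPM, Socs3, a brake on cytokine signals, at 170 and 76.0 CPM, and the formyl peptide receptor Fpr2, with 82 and 18 counts. The log2 ratio of Fpr2 was -1.17 (-1.99 to -0.42), and 0.43 without cells holding other cell types' markers. Scaling to the median gene brings Fpr2, at -0.94, and Socs3, at -0.93, inside 2-fold. Tnf had a log2 ratio of 0.50 (0.28 to 0.71) and Il1b -0.65 (-0.73 to -0.56).

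Interferon-stimulated genes as a list were higher at day 7, by at least 2-fold for 10 of 14 and lower for 0, with a median of 1.42. Of all genes 10.8% were higher and 15.6% lower. In the pooled labels 5 of 14 were higher, with a median of 0.75. Ifit2, which binds viral RNA, stood at 1.92 CPM (1.02 to 3.28) at day 2 and 99.4 (89.0 to 111) at day 7. Isg15 stood at 246 and 320 CPM.

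Chemokine ligands parted into those that were higher and those that were lower, with 6 and 11 of 17 tested and none between. Among all genes 10.8% were higher and 15.6% lower. Ccl2 and Ccl7, which attract monocytes, stood at 2768 (2729 to 2808) and 90.4 (80.5 to 101) CPM and at 1750 (1718 to 1781) and 27.8 (22.5 to 34.1) CPM. Cxcl3, which attracts neutrophils, had 927 counts and then 3, with a log2 ratio of -7.25 (-9.53 to -5.70). Pf4, platelet factor 4, stood at 3591 and 301 CPM.

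The higher ones were Ccl3, Ccl4, Ccl5, Cxcl10, Cxcl14 and Cxcl16. Cxcl16, a membrane-bound ligand, stood at 58.6 (53.0 to 64.7) and 611 (584 to 638) CPM. Ccl3 stood at 130 and 289 CPM, with a log2 ratio of 1.15 (1.02 to 1.28), and of 1.86 (1.76 to 1.97) in the pooled labels. Ccl5 had a log2 ratio of 8.66 (6.79 to 11.71), from 2 counts at day 2, and 5.28 (4.91 to 5.67) in the pooled labels. Among 5 receptors, Cx3cr1 stood at 8.86 (6.76 to 11.4) and 266 (249 to 284) CPM, and Ccr1, with Ccr2, was lower.

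Growth factor and repair genes went both ways, with 3 higher and 4 lower of 16 and a median of 0.49, beside 10.8% higher and 15.6% lower among all genes. Igf1, a growth factor of muscle, stood at 17.6 (14.6 to 21.0) and 167 (154 to 182) CPM. Gdf15 stood at 21.1 (17.8 to 24.9) and 447 (425 to 470) CPM, and Pdgfb, a ligand for fibroblasts and pericytes, had 5 and 259 counts, with a log2 ratio of 6.71 (5.47 to 8.35). Ambient RNA of day 7 held 103 CPM of Igf1 and 139 of Gdf15. The lower ones were Vegfa, Areg, Osm and Il1rn. Areg, which acts on repair cells through the epidermal growth factor receptor, stood at 62.3 (56.5 to 68.6) and 2.10 (0.842 to 4.32) CPM.

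Matrix and protease genes were lower for 9 of 17 and higher for 4, with a median of -1.25, beside 15.6% lower and 10.8% higher among all genes. Timp1, an inhibitor of metalloproteinases, stood at 241 (229 to 253) and 2.69 (1.23 to 5.11) CPM, while its relative Timp2 stood at 220 (209 to 231) and 916 (884 to 949). Fn1 stood at 1724 (1693 to 1756) and 249 (232 to 267) CPM, with a log2 ratio of -2.79 (-2.89 to -2.69), and of -3.83 (-3.96 to -3.70) in the pooled labels. Mmp9, a gelatinase, had 120 counts at day 2 and 0 at day 7 and was at least 19.7-fold lower against a floor of 3 counts over the group. Without cells holding other cell types' markers, 17 cells of day 7 were left, and with that floor the log2 ratio of Mmp9 was 0.27. The osteoclast-associated genes Acp5, Ctsk, Atp6v0d2 and Nfatc1 were higher, Mmp9 was lower, and the receptor Tnfrsf11a was within 2-fold. Without the cells above the 95th percentile of total counts, Ctsk had a day ratio of -0.56.

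Glycolysis genes were lower for 4 of 16, where 15.6% of all genes were, the glucose and lactate carriers Slc2a1 and Slc16a3 and the enzymes Gapdh and Pkm, with 0 higher and a median of -0.51 beside -0.23 over all genes. Gapdh stood at 932 (909 to 955) and 274 (257 to 293) CPM. Of 18 cell cycle genes, 4 had enough counts to be tested.

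Past the lists, the largest ratio by the ranking rule was that of Lag3, a receptor that binds MHC class II, with 3 counts at day 2 and 693 at day 7, with a log2 ratio of 8.87 (7.32 to 11.15). A count of Lag3 was found in 51.8% of M1-labelled cells at day 7 and in 0.641% at day 2, or 19.3% and 0.428% after thinning, against 2.01% and 11.3% of capillary endothelial cells. At day 7 the share was 55.9% in patrolling monocytes, 57.8% in Cxcl10+ monocytes and 45.3% in M2 macrophages high in Cx3cr1, and 23.8% and 9.52% in those low in Cx3cr1 and in inflammatory monocytes. After thinning, the same labels in that order stood at 28.7%, 28.9%, 22.0%, 6.93% and 1.19%, against 19.3% under the M1 name. Ephx1, an epoxide hydrolase, had 3 and 201 counts, Gpr34, a receptor for lysophospholipids, 7 and 225, and Cd72, a lectin-like receptor, 34 and 1080. H19, an imprinted noncoding RNA, had 0 and 132 counts, at least 89.2-fold higher against a floor of 3 counts over the group. Ambient RNA of day 7 held 339 CPM of H19 against 39.5 in the M1-labelled cells, and its part was not tested.

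For most genes the day ratio under the M1 name was near that of the other labels. The log2 ratios differed by a median of 0.18, and by at least 1 for 79 of 7093 genes, 42 with the M1 ratio above and 37 below. This difference was not tested. Counts under 3 were taken as 3 here, which puts the M1 day ratio of Ccl5 at 8.07. Among the former were Ccl5 at 2.79 above, Ephx1 at 2.67, Ifit2 at 2.29 and Gdf15 at 1.48, and among the latter Retnla at -3.11, Cxcl1 at -1.88 and Tfrc at -1.5. Ccl5 and Ephx1 had 2 and 3 counts at day 2, and single cells held most of the counts of Retnla.

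Cells under the M1 name were far from uniform. The lipid-associated genes took 2.84% of the counts of the median cell at day 2, with 1.45% at the 10th percentile and 6.60% at the 90th. At day 7 they took 7.96%, with 2.22% and 12.5%. The medians in patrolling monocytes were 5.92% and 9.80% and in inflammatory monocytes 1.94% and 2.15%. Of the M1-labelled cells, 14.3% at day 2 and 26.8% at day 7 lay above the patrolling median, and 73.3% and 90.4% above the inflammatory median.

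MHC class II genes differed widely between cells. Their 10th percentile, median and 90th percentile were 0.00892%, 0.0438% and 0.896% at day 2, and 0.743%, 4.06% and 8.25% at day 7. Lysosomal genes took 2.51% (1.56% to 4.54%) and 4.47% (2.47% to 6.87%) of counts, and monocyte genes 0.892% (0.397% to 1.90%) and 0.0555% (0.0075% to 0.200%). Interferon-stimulated genes exceeded the median of Cxcl10+ monocytes in 0.855% of the M1-labelled cells at day 2 and in 2.19% at day 7.

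**Figure D4:**
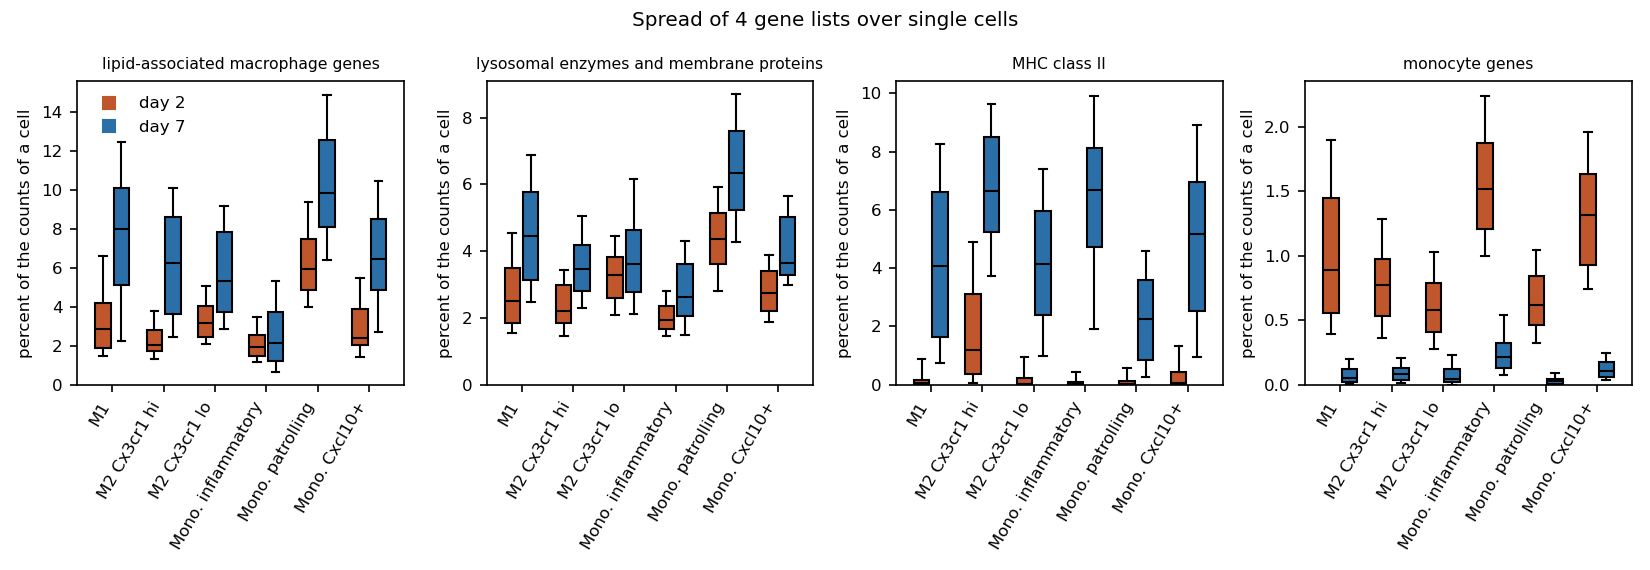
Share of each cell's counts in 4 gene lists, by label and day, with boxes from the 25th to the 75th percentile, whiskers from the 10th to the 90th and a line at the median. For the lipid-associated genes the M1 median, 2.84% at day 2 and 7.96% at day 7, lies between those of inflammatory and patrolling monocytes, as do the medians of the other 3 labels.

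Within the M1-labelled cells of day 2, the shares of lipid-associated and lysosomal genes went together across cells thinned to 2000 counts (Spearman's rho 0.52, 467 cells), and both went against monocyte genes (rho -0.49 and -0.53). Lipid-associated genes also went with the cell's total counts (rho 0.56) and monocyte genes against it (rho -0.52). At day 7 MHC class II went against lysosomal (rho -0.61) and lipid-associated genes (rho -0.51, 228 cells), and against total counts (rho -0.31). These cells share a library, the lipid-associated and lysosomal lists share genes, and shares of one total trade off, so the values are a description.

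Some single genes were concentrated in few cells. The 47 richest of the 468 cells held 79.5% of the Gpnmb counts at day 2, and the 23 richest of 228 held 59.4% at day 7. The same measure was 64.0% and 78.8% for Spp1 and 40.3% and 27.2% for Apoe. A count of Gpnmb was found in 29.3% and 68.0% of cells, or 12.6% and 57.0% after thinning, against 0.629% and 2.01% of capillary endothelial cells.

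Markers of several other cell types were found in the M1-labelled cells, and some moved with the day. The 8 myofibre genes, among them Acta1 and Ckm, summed to 20.5 CPM at day 2 and 721 at day 7. In ambient RNA they stood at 600 and 22907 CPM, and in the pooled labels at 18.8 and 1005. At least 3 counts of them were held by 2.14% of M1-labelled cells at day 2 and 79.4% at day 7, and by 0.850% and 66.2% of the other cells. Markers of fibro-adipogenic progenitors, the connective tissue cells of muscle, summed to 232 and 366 CPM, and in ambient RNA to 1021 and 9834. At least 3 counts of these were held by 52.1% and 72.8% of M1-labelled cells, and by 36.5% and 47.6% of the others. Neutrophil markers summed to 69.3 and 78.7 CPM, with Ly6g, Ngp and Camp at 0 on both days, and 7.91% and 14.0% of M1-labelled cells held at least 3 counts, against 6.31% and 3.59% of the others. Red cell markers were at 10.2 and 5.39 CPM, those of T and natural killer cells at 0.886 and 1.5, of B cells at 0.295 and 1.20, and of dendritic cells at 3.99 and 8.98, with Zbtb46 at 0. Endothelial markers were at 54.5 and 34.7 CPM, smooth muscle at 9.16 and 12, myogenic at 1.33 and 21.3, and basophil or mast cell at 11.2 and 0, with 74 counts of Cpa3 in 1 cell. Without the cells that held 3 or more counts of any of these types, 202 M1-labelled cells of day 2 and 17 of day 7 were left, and 1195 of 3386 genes, in place of 1875 of 7099, were apart between days. They were 268 higher and 927 lower at day 7, in place of 769 and 1106. These numbers rest largely on 3 of the markers, Gsn, Csf3r and Pecam1. With those left out of the markers, 425 M1-labelled cells of day 2 and 35 of day 7 were left. Then 1872 of 5850 genes were apart between days, 497 higher and 1375 lower at day 7. That choice of markers was made after seeing the data.

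Genes that dissociation can induce were higher at day 7 in 5 of 10, with 0 lower and a median of 1.24, beside 10.8% higher and 15.6% lower among all genes. Hspa1a, a heat shock protein, stood at 622 and 2818 CPM, and Atf3, a stress factor, at 147 and 646 CPM. In the pooled labels Hspa1a had a log2 ratio of 2.12 (2.08 to 2.15). The part of these genes, of ambient RNA and of other cells in the day differences was not tested. SoupX, the ambient RNA correction of the study, removed 2.94% of the M1 counts at day 2 and 2.70% at day 7, and the values here are uncorrected.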

How the data were processed

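The deposited matrices hold UMI counts for each gene in each barcode, made by the authors with Cell Ranger (3.0.1 per the file headers, 3.1.0 in the submitters' processing notes) on mm10. The authors also deposited SoupX values, in effect estimated counts with decimals left after ambient RNA is taken off, and a table of annotated barcodes. Per their methods, they filtered cells, used DoubletFinder against doublets and named clusters of a larger integrated collection with Seurat (3.1.5 in the submitters' processing notes). No doublet caller was run here.

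Groups came from the labels, with 1 library per day. M1-labelled barcodes were matched to the filtered matrices (4836 and 4889 called barcodes). Cells were kept with at least 750 genes, 1000 transcripts and at most 30% mitochondrial transcripts in the SoupX values. Uncorrected counts were summed per label and given as CPM with exact Poisson intervals. Ratios have exact conditional binomial and shares exact Clopper-Pearson intervals (95%). Only the ratio intervals were tried on simulated data. Those data held Poisson counting error alone, so they cannot show how the intervals behave where few cells hold most counts. Intervals for differences of shares were joined by the square-and-add method. The floor behind a count of 0 was 3 counts. Genes with at least 100 counts over both groups were compared, and 2-fold was the threshold. Cells are not replicates, so there are no p-values.

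Named genes are those of 23 lists and, by rank, the 12 largest and 12 smallest day ratios, and the 12 largest and 8 smallest ratios to the other labels. Ranked genes had at least 100 counts, and a count in 20% of cells, in 1 group. Mitochondrial, ribosomal protein, haemoglobin and myofibre genes were left out of the ranking. Of 380 list genes 377 were in the files, under the symbols used. The M1 cells, the lists and the rules were chosen with earlier results of these data known. Coordinates are GENCODE vM21 (27722 of 27998 identifiers matched) and promoters RefSeq, GRCm38.p6. Printed windows overlap no GENCODE exon. Tools were Python 3.11.15, numpy 2.4.6, scipy 1.17.1, pandas 2.3.3 and matplotlib 3.10.9. The alternatives tried were scaling, count filters, SoupX values, cell limits, equal weights for cells or labels, and leaving out cells. Some genes of the lists and of the ranking are not reported here.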

Additional observations from a re-analysis of the deposited data

How the results depend on the processing

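Counting depth, 1 mouse per day and the annotation's own clusters limit these results. No paired analysis was possible because each day has 1 library. The 1875 genes apart between days became 3168 with a filter of 20 counts, 7450 with no filter, and 1195 without cells holding 3 or more counts of another cell type's markers, which left 202 M1-labelled cells of day 2 and 17 of day 7. The share of higher genes among those apart was 41.0% as reported, 53.9% with the filter of 20 counts, 79.4% with no filter and 22.4% without those cells. The 28 genes apart from the pooled labels at day 2 became 214, 575 and, with labels weighted equally, 115, and the 18 at day 7 became 253, 721 and 47. With the filter of 20 counts 80 were higher and 134 lower at day 2 and 93 and 160 at day 7. Under the other settings the numbers were 1762 to 1988, 20 to 34 and 13 to 25. The M1 share at day 2 was 13.4% without limits, 20.1% with stricter ones and 36.2% of monocytes and macrophages, and at day 7 9.43% with stricter limits and 30.1% of monocytes and macrophages. Some log2 ratios, with counts under 3 taken as 3, changed sign. Between days, without cells above the 95th percentile of counts, Ctsk was -0.56 and Retnla 5.68. Without cells with other markers, Retnla was 3.98, Clec10a 0.030, Fpr2 0.43, Mmp9 0.27 and Olr1 0.81. For Retnla at day 2 against the pooled labels the values were -1.02 as a mean over cells, -5.56 without the 95th percentile cells and -4.91 without cells with other markers. Against the pooled labels at day 7, Ctsk was -0.73 without the 95th percentile cells and Ccl5, at -1.06 otherwise, 1.60 without cells with other markers. Leaving out the highest cell of each gene, and leaving Gsn, Csf3r and Pecam1 out of the other-cell markers, were chosen after seeing the data. The first gave Retnla 0.70 between days and -4.37 at day 2, the second 4.0 and -5.30, Ccl5 1.24 and Fn1 -0.13 at day 7. Under the second, 8 genes were higher and 5 lower than in the pooled labels at day 7. It left 425 M1-labelled cells of day 2 and 35 of day 7, and 1872 genes were apart between days, 26.5% of them higher. The causes were not tested, beyond the fewer cells and the single cells named above.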
